A study of Xenopus laevis with 16 samples.

Results

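Animal caps that had received Pax3 and the translation blocker cycloheximide were compared with untreated control caps, in 6 of the 15 biological samples of the series. The samples were chosen by their labels, 3 of each group, and were paired by replicate number. All 32539 probe sets that are not Affymetrix controls, of 32635 on the Xenopus laevis array, were tested. Per the labels, embryos of the first group received hormone-inducible Pax3-GR by injection when they had 2 to 4 cells, were grown at 15 °C, and gave their caps at stage 9. They were given cycloheximide at 0.1 mg/ml from stage 10, for 30 min at 23 °C, and then dexamethasone as well from stage 10.5. They were lysed after another 2 h at 23 °C, when whole embryos had reached stage 11.5 to 12. Control caps had no injection, no dexamethasone and no cycloheximide. Another group, Pax3 caps with dexamethasone and no cycloheximide (n = 3), is given beside them. No group had injection, dexamethasone or cycloheximide without Pax3, so these cannot be told apart from Pax3 in a difference from control caps, except where the drug was compared within Pax3 caps. The remaining groups, Pax3 and Zic1 caps without and with cycloheximide, entered only the shared estimate of the spread.

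An animal cap is the ectoderm of the upper pole of the blastula, which forms epidermis when it is left alone and can be turned to other fates by injected factors. Pax3 is a paired-box and homeodomain transcription factor of the neural plate border, where ectoderm between neural plate and epidermis gives rise to the neural crest. Joined to the hormone-binding part of the glucocorticoid receptor (GR), it stays inactive until dexamethasone is added. Cycloheximide stops ribosomes from elongating, so that genes which need a newly made protein in between cannot be switched on by the factor. The drug also acts on its own, since short-lived repressors and messenger-degrading proteins are no longer replaced, and many early-response messengers accumulate under it in other vertebrate cells. The series asked which genes Pax3 and Zic1 control directly, and this comparison is the one that sets Pax3 activity under the drug against caps with neither.

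Values are log2 expression per probe set. Array means lay between 4.96 and 4.99 in all samples, and the difference between replicates of a group had an SD over probe sets of 0.517 to 0.759. Changes are given as the difference between group means ± SE, each group having n = 3, from a limma model over all 5 groups with the replicate number as a block, and an adjusted p is the Benjamini-Hochberg value of that model over all probe sets. A change is said to have passed at an adjusted p under 0.05. Where a call of this main comparison was lost in the same model without the block, that model's adjusted p follows it as the unpaired adjusted p. Genes end in .L or .S for the copy of the genome they lie in. The arrays measured whole caps, so that fewer cells of a kind and less RNA per cell cannot be told apart.

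The control caps carried the messengers of ectoderm. The epidermal keratin genes krt12.5.S and krt12.4.S stood at means of 11.21 and 10.15, and the mean of the 69 epidermal genes on the list used was 7.35 to 7.76 per sample. The same mean was 3.05 to 3.57 for 89 mesoderm genes and 3.22 to 3.75 for 40 endoderm genes. Such means set different probe sets side by side and rank nothing.

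The injected factor was measured first. One pax3.L probe set was at 1.73, 1.86 and 1.28 in control replicates 1 to 3 and at 6.55, 7.43 and 6.26 in Pax3 caps with cycloheximide, a difference of 5.12 ± 0.25 (adjusted p = 1.45e-06). The pax3.S probe sets differed by 4.32 and 4.05. None of the 3 overlapped between the groups. The 4 other pax3.L probe sets did not pass, at -0.71, -0.35, -0.12 and 0.15. Their control means were 6.9, 10.62, 10.07 and 2.27 in that order, where the pax3.L probe set that rose had 1.62. Whether all probe sets annotated as pax3.L detect the same RNA was not tested. No source used here says which of the pax3 probe sets see the injected RNA. The zic1.S gene, which encodes a zinc finger factor of the border and was not injected here, rose in both of its probe sets. The first was at 6.74, 6.98 and 7.69 in control caps and 8.24, 9.15 and 9.22 in Pax3 caps with cycloheximide, a rise of 1.73 ± 0.15 (adjusted p = 5.66e-05), and the second rose by 1.97.

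Across the array 4836 probe sets differed between Pax3 caps with cycloheximide and control caps, or 14.9% of those tested. Of these 2562 were higher (7.87%) and 2274 lower (6.99%). Without the replicate block 822 passed (2.53%), 418 higher (1.28%) and 404 lower (1.24%). With each array centred on its median the split turned, to 2102 higher and 3350 lower, so that 38.6% of the calls were higher in place of 53%. Quantile normalization gave a nearly even split, 2326 higher and 2355 lower (49.7% higher). The median change over all probe sets was -0.034 as deposited and -0.101 after centring. A change of at least 1 was shown by 727 probe sets that rose (2.23%) and 625 that fell (1.92%). Whatever the test, the values of the groups did not overlap in 2717 probe sets that were higher (8.35%) and 3651 that were lower (11.2%). Leaving out 1 sample lowered the count of calls to 2716 without Pax3 with cycloheximide replicate 3, 2735 without control replicate 1, 2809 without control replicate 3 and 2845 without Pax3 with cycloheximide replicate 2. Of the 2562 higher probe sets 2561 moved that way in 3 of 3 replicate pairs, and of the 2274 lower ones 2272. The model with the block favours probe sets whose pairs are alike, so this count adds no support to the calls. The plot of all probe sets shows these calls over the range of expression.

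**Figure D1:**
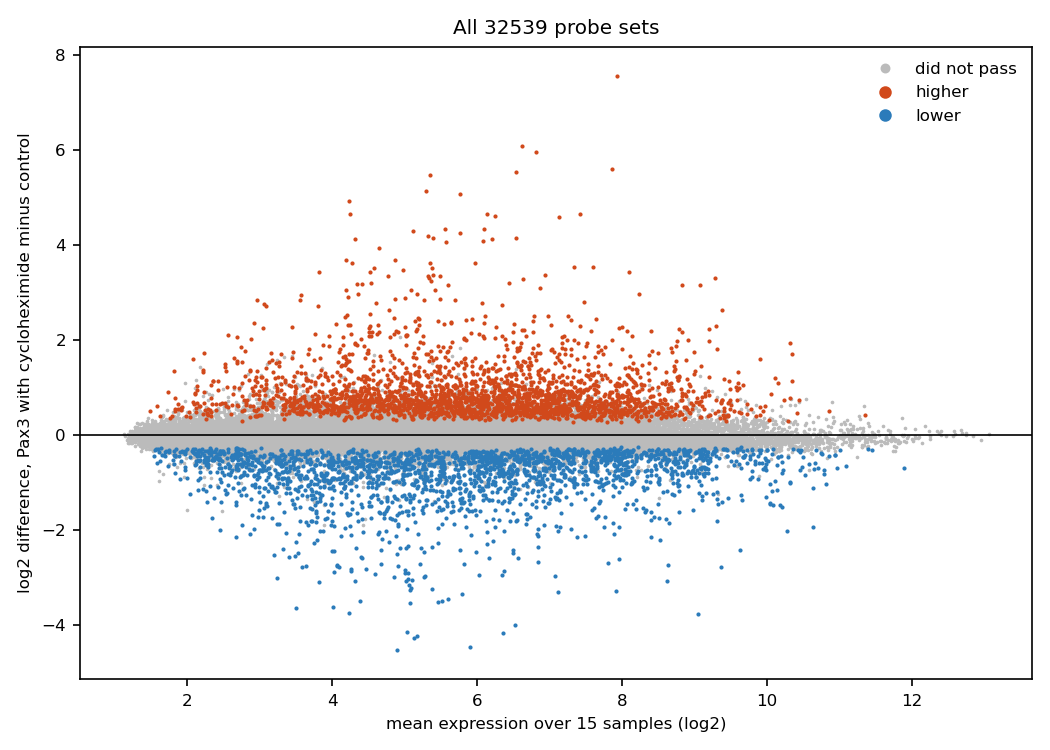
Change of each of the 32539 probe sets (log2 difference, Pax3 caps with cycloheximide minus control caps, vertical axis) against its mean expression over 15 samples (log2, horizontal axis). The 2562 probe sets that passed and were higher and the 2274 that passed and were lower lie on both sides of 0, and grey points did not pass.

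By construction each change is the sum of a Pax3 difference (Pax3 caps against control caps) and a drug difference (Pax3 caps with cycloheximide against Pax3 caps without). In the first 695 probe sets passed (2.14%), 273 higher (0.839%) and 422 lower (1.3%). In the second 3412 passed (10.5%), 1778 higher (5.46%) and 1634 lower (5.02%). Without the block the counts were 93 (0.286%) and 283 (0.87%). These differences share samples with the main comparison and with each other, so their values are given side by side and nothing is read from their likeness. Most of their calls needed the block. Of the named probe sets 57 passed for the Pax3 difference and 17 of these also without the block, and 99 passed for the drug difference and 24 of these also without it.

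The Pax3 differences given below that passed without the block as well were those of aldh1a2.L, arrdc2.S, foxa1.L, gsc.L, hes5.7.L, irx3.L, nkx6-2.L, nrn1.S, pax3.L, tfap2b.L and xa-1.L. The drug differences that did were those of ag1.S, axin2.L, foxi1.L, fzd4.S, gadd45g.L, gadd45g.S, hes7.1.L, hspa5.L, lefty.L, lfng.S, nkx6-2.L, ostc.L, pdia4.L, snai2.S and vill.S. Every other Pax3 or drug difference that is said below to have passed for a single gene was lost without the block.

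The 15 genes with the largest rises among those with 1 symbol and no overlap between groups gained 4.09 to 5.94, which is 17-fold to 61.5-fold. They passed also without the block and with any 1 of the 6 samples left out. The choice of large, called changes without overlap favours this. Neither these refits nor the lack of overlap in single genes below adds support to the calls. Most encode transcription factors.

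The largest rise was that of sox17b.1.S, which encodes an HMG-box factor of early endoderm. It was at 2.67, 5.32 and 3.37 in control caps and at 9.86, 10.26 and 9.06 in Pax3 caps with cycloheximide, a rise of 5.94 ± 0.56 (adjusted p = 7.73e-05). Its relative sox17a.S went from 2.84, 3.37 and 2.89 to 7.55, 8.08 and 6.33, a rise of 4.29 ± 0.47 (adjusted p = 0.000211). For both genes every sample of Pax3 caps with cycloheximide lay above every control sample. The .L copies rose too, sox17b.1.L by 3.17 and sox17a.L by 2.63. These genes are close relatives, and how far a probe set for one also detects another was not tested.

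The Hes repressor gene hes7.1.L, of a family that acts downstream of Notch, was at 5.06, 5.07 and 4.27 in control caps and at 10.79, 10.51 and 9.92 in Pax3 caps with cycloheximide. It rose by 5.6 ± 0.38 (adjusted p = 9.55e-06). The homeobox gene gsc.L, known as goosecoid and expressed in the dorsal organizer, went from 2.01, 2.23 and 2.19 to 6.69, 7.35 and 7.61, a rise of 5.08 ± 0.40 (adjusted p = 2.56e-05). In each of the genes the highest control sample lay far below the lowest sample of the other group. Other probe sets of hes7.1.L rose by less, 2.86 (unpaired adjusted p = 0.0996) and 1.46 (unpaired adjusted p = 0.351), and gsc.S, the other copy of goosecoid, rose by 3.19.

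Several of the largest rises were those of homeobox and zinc finger genes of the neural tube. prdm12.L, a zinc finger gene of neural progenitors and placodes, was at 2.53, 2.74 and 2.45 in control caps and at 7.07, 7.46 and 7.16 in Pax3 caps with cycloheximide, a rise of 4.66 ± 0.32 (adjusted p = 9.55e-06). The Iroquois homeobox gene irx3.L went from 2.68, 3.36 and 2.64 to 7.07, 7.98 and 7.46, a rise of 4.61 ± 0.43 (adjusted p = 7.57e-05), and its other probe set rose by 3.05. The homeobox gene nkx6-2.L went from 2.79, 2.47 and 2.52 to 6.58, 7.29 and 6.31, a rise of 4.13. Replicates lay within 1 unit of each other in all 3 genes, and the groups lay apart. Another nkx6-2.L probe set did not pass, at 0.50 (adjusted p = 0.118).

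Of the remaining genes tfap2b.L is described with the crest genes and the pax3 genes with the injected factor. The forkhead gene foxa1.L rose by 4.09 ± 0.28 (adjusted p = 9.55e-06) and by 3.51 in another probe set. nrn1.S, which encodes the small neurite protein neuritin, rose by 4.66 and by 3.68 in another probe set, and astl3a.1.L, of the astacin family of metalloproteases, by 5.47 ± 0.80 (adjusted p = 0.00112). The latter had the widest spread of the 15, from 5.79 to 8.60 within Pax3 caps with cycloheximide. rasd1, a small GTPase gene named in mouse for its induction by dexamethasone, rose by 4.65 ± 0.41 (adjusted p = 5.81e-05), and by 1.74 (unpaired adjusted p = 0.075) in another probe set whose Pax3 difference was -1.05 and did not pass. arrdc2.S, of the arrestin domain family, rose by 4.12, and another of its probe sets did not pass, at -0.07. The .L copy of that gene did not pass either, at 0.61.

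The genes that fell most included genes of the secretory epidermis and of the cement gland. The 15 largest falls lay between -4.54 and -3.23, which is 9.39-fold to 23.2-fold. They kept their call with any 1 of the 6 samples left out, and 11 of them kept it without the block. The same choice favours this, so it adds no support either.

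The cement gland gene ag1.S, which encodes a secreted anterior gradient protein, was at 9.24, 7.81 and 8.05 in control caps and at 4.89, 3.54 and 3.23 in Pax3 caps with cycloheximide. It fell by 4.47 ± 0.17 (adjusted p = 5.56e-07). Within each group replicate 1 was the highest, and the pair differences were alike. The other copy ag1.L fell by 2.70, from 9.81, 9.61 and 9.79 to 6.91, 7.29 and 6.90. The related agr2.S fell by 3.49, and its copy agr2.L did not pass (-1.28, adjusted p = 0.16).

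The intelectin gene itln1.L, a lectin of mucus-secreting epidermal cells, went from 6.34, 8.42 and 9.1 to 2.55, 4.06 and 4.45, and fell by 4.27 ± 0.39 (adjusted p = 6.3e-05). The keratin gene krt12.4.S went from 9.75, 10.50 and 10.21 to 6.16, 8.2 and 6.24, and fell by 3.29 ± 0.41 (adjusted p = 0.000433, unpaired adjusted p = 0.0691). Groups did not overlap in either gene, which the choice of genes required, and itln1.L was far lower in control replicate 1 than in the others. The otogelin-like mucin gene otogl2.L fell by 3.76 and by 4.17 in another probe set, and the anion exchanger gene slc26a4l.L fell by 3.66. Among genes of other kinds vill.S, of the villin-like actin-binding proteins, fell by 3.45, s100a10.S, an annexin partner, by 3.35, and gdpd1.L, a phosphodiesterase gene, by 3.50. s100a10.L fell by only 0.41. tmx4.L, of thioredoxin-like membrane proteins of the endoplasmic reticulum, fell by 3.31. ostc.L, an oligosaccharyltransferase subunit gene, fell by 3.27, and by 0.83 and 2.37 in its other probe sets, while ostc.S did not pass, at -0.13. The remaining falls were those of hes5.5.S, described with the Notch genes, LOC100158288 (-4.54), LOC398451 (-3.54, unpaired adjusted p = 0.197) and the TBC domain gene tbc1d24.2.L (-3.52, unpaired adjusted p = 0.139). The plot of values by sample shows all 30 genes.

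**Figure D2:**
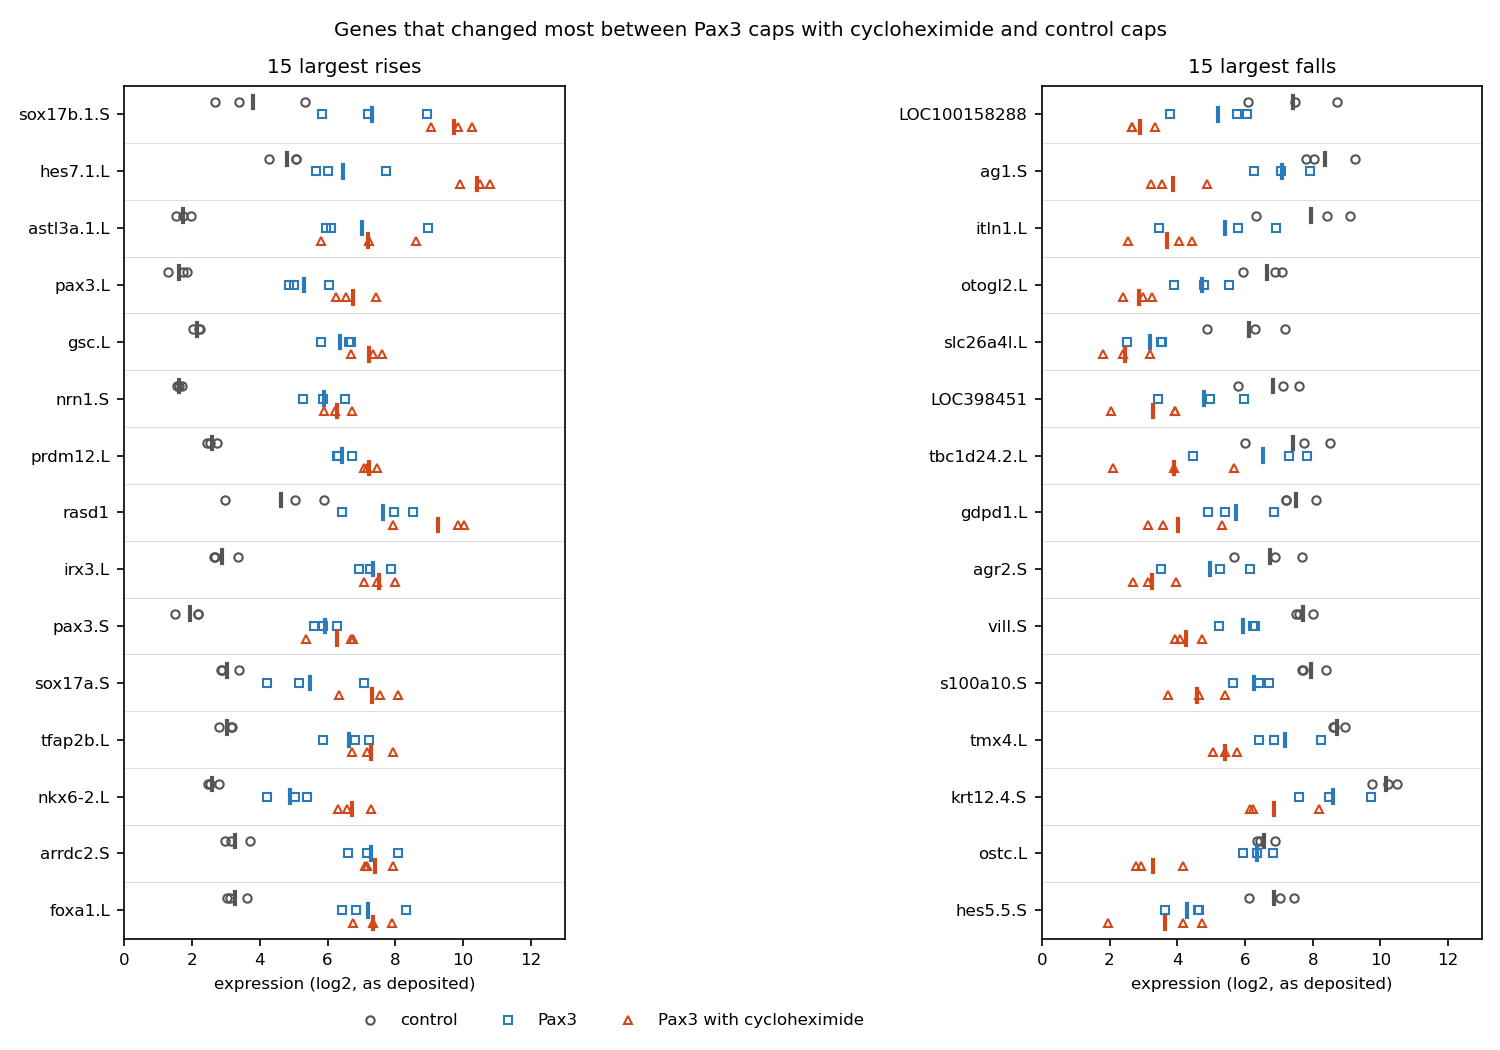
Expression (log2, horizontal axis) of the 15 genes with the largest rises and the 15 with the largest falls in every sample of control caps (circles), Pax3 caps (squares) and Pax3 caps with cycloheximide (triangles), n = 3 each, with a vertical tick at each group mean. Circles and triangles do not overlap in any of these genes, which the choice of genes required.

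The Pax3 difference and the drug difference of each gene were set side by side. All 15 passed in Pax3 caps against control caps, and 6 passed also for the drug difference. Without the block 10 of the 15 and 2 of the 6 passed. irx3.L had a Pax3 difference of 4.45 (adjusted p = 0.00041) and a drug difference of 0.16 (adjusted p = 0.869). foxa1.L (3.93 and 0.15), arrdc2.S (4.01 and 0.12), astl3a.1.L (5.27 and 0.19) and nrn1.S (4.26 and 0.39) had the same make-up, with no drug difference that passed. gsc.L had 4.23 and 0.84 (adjusted p = 0.214 for the drug). In hes7.1.L the drug difference was the greater, 3.94 (adjusted p = 0.000369), beside a Pax3 difference of 1.66 (adjusted p = 0.0475). Both passed also in sox17b.1.S (3.53 and 2.42), sox17a.S (2.44 and 1.85), nkx6-2.L (2.29 and 1.85) and rasd1 (3.0 and 1.64), and of these 4 genes nkx6-2.L alone kept both calls without the block. The last of the 6 was the pax3.L probe set that rose, with 3.69 and 1.43 (adjusted p = 0.00554, unpaired adjusted p = 0.283 for the drug). Its signal was thus higher with the drug than without it. The pax3.S probe sets had drug differences of 0.36 and 0.43 that did not pass.

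Among the 15 falls 10 passed for the Pax3 difference and 12 for the drug difference. Without the block none of the 10 passed in limma, and 3 of the 12 did. ostc.L had -0.19 with Pax3 (adjusted p = 1) and -3.07 with the drug (adjusted p = 0.000542). ag1.S had -1.27 (adjusted p = 0.00307, unpaired adjusted p = 1) and -3.20 (adjusted p = 7.64e-06). slc26a4l.L had -2.92 (adjusted p = 0.00193) and -0.73, the latter not passing, and hes5.5.S had -2.56 and -0.67 with only the first passing. vill.S passed in both with nearly equal parts, -1.77 and -1.68. Whether the drug difference would be of the same size in caps without Pax3 was not measured. The plot of the parts shows the 30 genes.

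**Figure D3:**
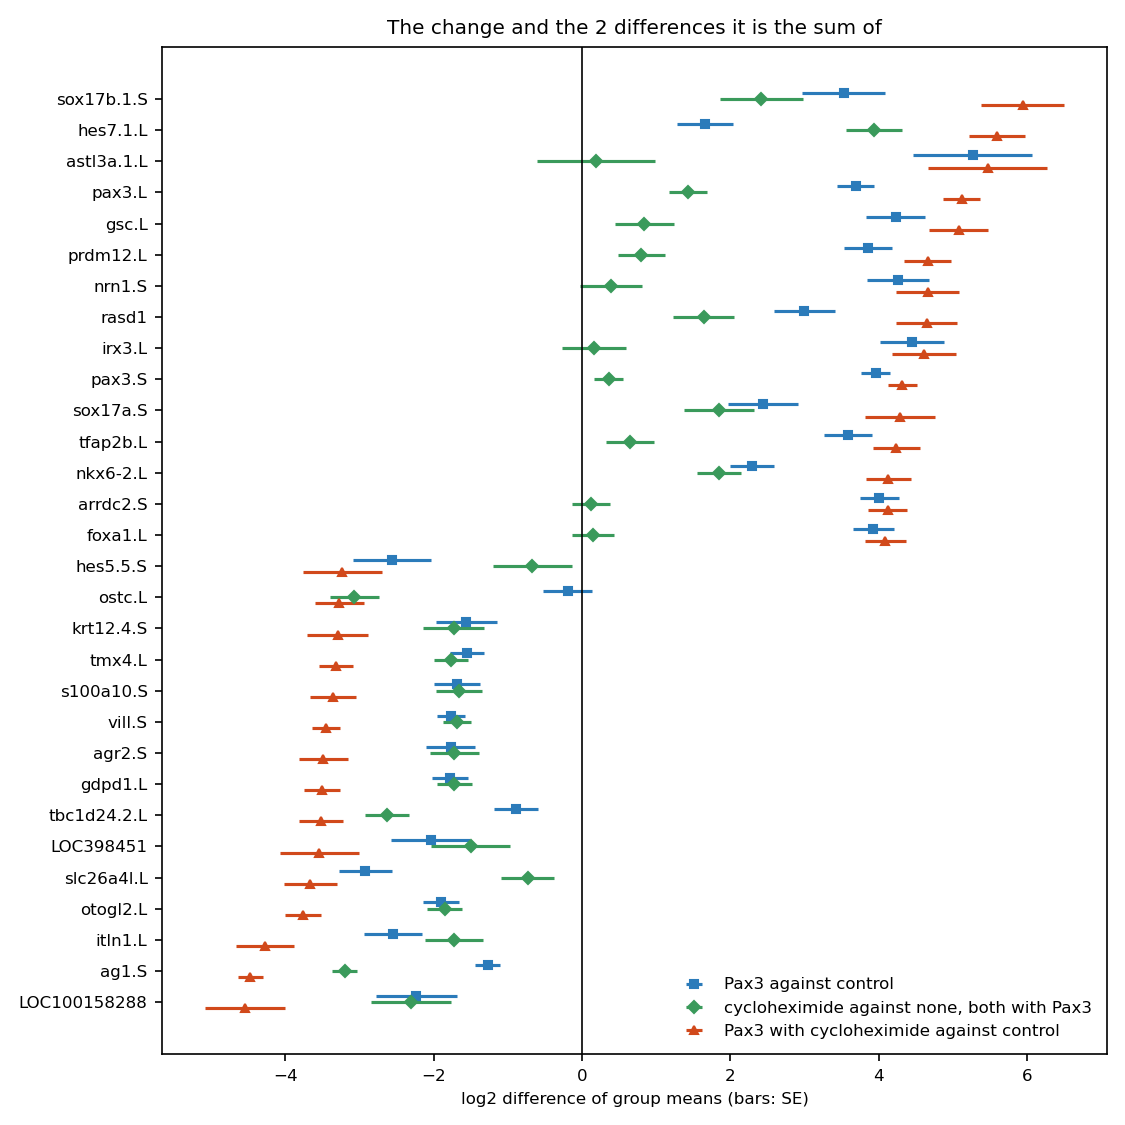
Log2 differences of group means with SE (bars, n = 3 per group) for the 15 largest rises and 15 largest falls: Pax3 against control (squares), cycloheximide against none in Pax3 caps (diamonds), and their sum, Pax3 with cycloheximide against control (triangles). The squares lie near the triangles for genes such as irx3.L (4.45 of 4.61), and the diamonds do for genes such as ostc.L (-3.07 of -3.27).

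A rise under the drug could also be smaller than without it. xa-1.L, a gene of the anterior ectoderm in frogs, had a Pax3 difference of 5.49 (adjusted p = 0.000689) and a drug difference of -2.43 (adjusted p = 0.0226). It was at 3.02, 2.45 and 2.60 in control caps and at 4.50, 6.43 and 6.31 in Pax3 caps with cycloheximide, a rise of 3.06 (unpaired adjusted p = 0.0766). foxa1.S was of this kind as well, at 2.68, -1.11 (adjusted p = 0.0202) and 1.57 (unpaired adjusted p = 0.161).

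The neural crest specifiers are transcription factors that turn border cells into crest and drive the change of epithelial into migratory cells. They were called in part. Of 32 crest genes on the list, 14 rose and 3 fell, with a median change of 0.59. Over all 11303 genes with 1 symbol, taken 1 probe set each, 1157 rose (10.2%) and 777 fell (6.87%) and the median was -0.02. Without the block 5 of the crest genes rose and 1 fell, beside 188 (1.66%) and 127 (1.12%) of all genes. These shares of all genes belong beside the counts of every list below. The mean level of the crest list was 5.05 to 5.46 in control caps and 5.81 to 6.54 in Pax3 caps with cycloheximide.

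tfap2b.L, an AP-2 factor gene, was at 2.78, 3.16 and 3.17 in control caps and at 6.73, 7.16 and 7.93 in Pax3 caps with cycloheximide, a rise of 4.24 ± 0.32 (adjusted p = 1.74e-05). The forkhead gene foxd3.L, which keeps crest cells undifferentiated, went from 1.86, 2.45 and 2.25 to 4.39, 6.38 and 6.35, a rise of 3.52 ± 0.40 (adjusted p = 0.000251), and foxd3.S rose by 2.97 (unpaired adjusted p = 0.0639). Replicate 1 was the lowest of its group in all 3 genes and still lay above every control sample. Their Pax3 differences were 3.59, 2.69 and 1.95, the last short of passing (adjusted p = 0.0501), and the drug differences of 0.65, 0.83 and 1.02 did not pass.

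The Snail genes encode zinc finger repressors of epithelial adhesion. snai1.S was at 2.99, 4.77 and 4.75 in control caps and at 5.55, 7.32 and 7.13 in Pax3 caps with cycloheximide, a rise of 2.50 ± 0.29 (adjusted p = 0.000314, unpaired adjusted p = 0.175). snai2.S went from 1.39, 1.55 and 1.86 to 3.48, 3.94 and 3.67, a rise of 2.09 ± 0.15 (adjusted p = 1.35e-05). snai2.L went from 1.43, 1.22 and 1.34 to 3.49, 4.83 and 2.70, a rise of 2.35 (adjusted p = 0.000895, unpaired adjusted p = 0.0681). The lowest value under the drug lay above the highest control value in all of them. In its parts snai1.S had a Pax3 difference of 2.02 (adjusted p = 0.00432, unpaired adjusted p = 0.938) and a drug difference of 0.47 that did not pass. snai2.S had a Pax3 difference of 0.32 (adjusted p = 0.587) and a drug difference of 1.77 (adjusted p = 0.000154), and snai2.L had 1.02 and 1.33 with only the drug difference passing (adjusted p = 0.0273, unpaired adjusted p = 0.468).

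ets1.L, an Ets factor gene of cranial crest, rose by 1.41 ± 0.23 (adjusted p = 0.0021, unpaired adjusted p = 0.138), with a Pax3 difference of 0.26 and a drug difference of 1.15. Another of its probe sets rose by 1.29 (unpaired adjusted p = 0.0971), and one at -0.02 did not pass. ets1.S rose by 1.18 (adjusted p = 0.0325, unpaired adjusted p = 0.173), a call that held only with all samples or without control replicate 2. The other specifiers named did not pass. twist1.L, a bHLH gene, was nearest at 0.72 (adjusted p = 0.0523). The SoxE genes sox9.L (0.41), sox9.S (0.45), sox8.L (-0.41) and sox10.L (-0.16), which encode HMG-box factors of crest formation, missed the threshold. So did the AP-2 genes tfap2a.L (0.33) and tfap2a.S (0.57) and the myc genes myc.L (-0.36) and myc.S (0.51). sox10.L had means of only 1.81 in control caps and 1.65 in Pax3 caps with cycloheximide, far below the array means. For it a lack of change cannot be told from a lack of signal. Of the crest genes that fell, kit.S, a receptor tyrosine kinase gene of pigment cells, fell by 2.48 ± 0.22 (adjusted p = 4.76e-05), kit.L by 1.33 (unpaired adjusted p = 0.373) and id2.S, an inhibitor of bHLH factors, by 0.84 (unpaired adjusted p = 0.576). The call for id2.S held in 1 of the 6 fits with a sample left out, that without control replicate 2.

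**Figure D4:**
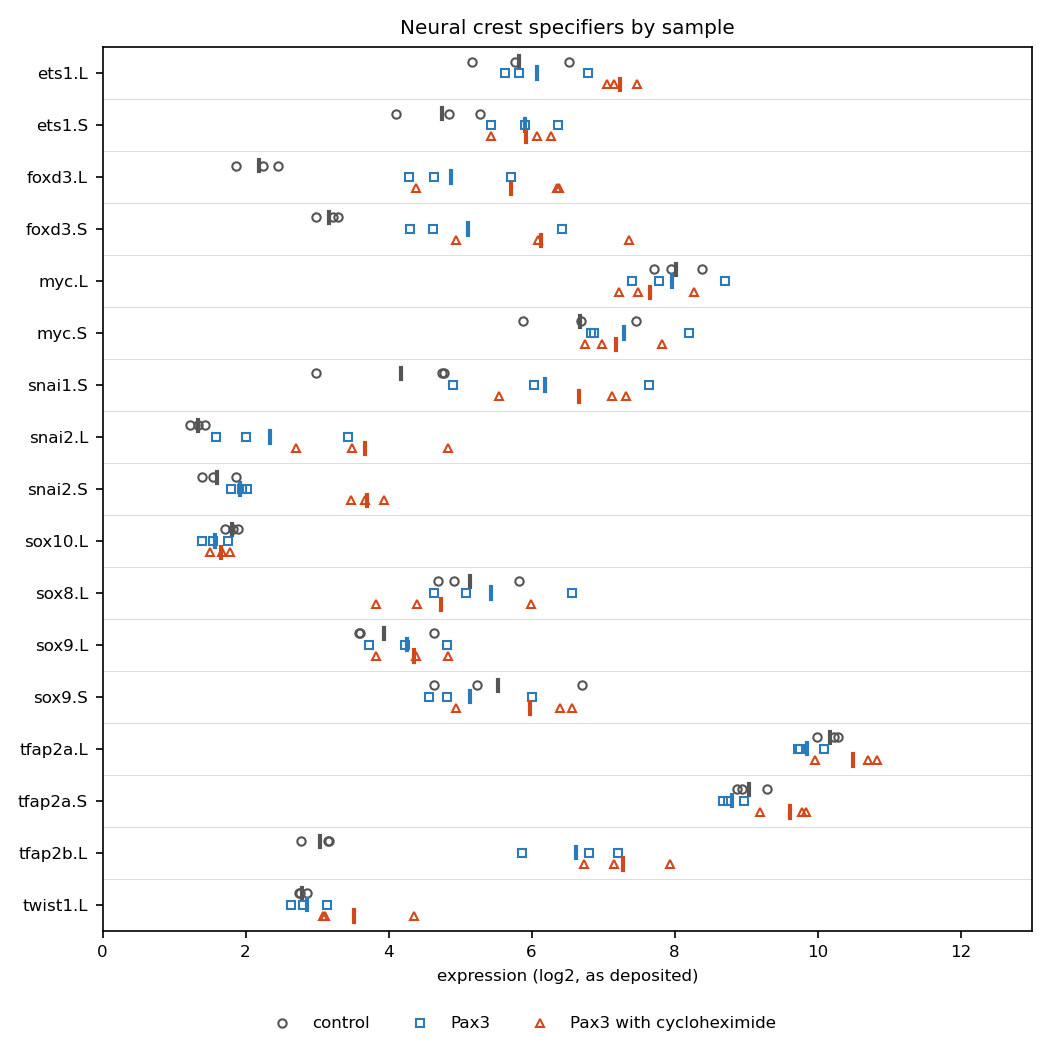
Expression (log2, horizontal axis) of the neural crest specifiers in every sample of control caps (circles), Pax3 caps (squares) and Pax3 caps with cycloheximide (triangles), n = 3 each, with a vertical tick at each group mean. Triangles lie apart from circles for tfap2b.L, foxd3, snai1.S, snai2 and ets1, and overlap the range of the circles for sox9.S, sox10.L and the myc genes.

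The neural plate border list, genes of the strip in which Pax3 itself acts, had 14 rises and 2 falls among 37 genes and a median of 0.57. Without the block 9 rose, and without control replicate 2 the median was 0.33. The largest rises after irx3.L and pax3.S were those of zic1.S and of hes1.S, a Hes repressor gene. pax3.S counts among the 14 rises, and whether its probe set sees the injected Pax3 RNA is not known. hes1.S went from 6.34, 6.30 and 6.02 to 8.49, 8.99 and 7.44, a rise of 2.09 ± 0.25 (adjusted p = 0.000318, unpaired adjusted p = 0.0616). Its Pax3 difference was -0.28 and its drug difference 2.37 (adjusted p = 0.000486). zic1.S had 1.02 and 0.71 in one probe set, both passing, and 0.92 and 1.05 in the other, where only the drug difference passed. The falls were those of the distal-less genes dlx3.L (-1.46, unpaired adjusted p = 0.22) and dlx3.S (-1.25, unpaired adjusted p = 0.213), which mark the epidermal side of the border. Other dlx3.L probe sets fell by 1.82 (unpaired adjusted p = 0.112) and 1.87.

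Genes of the neural plate, the ectoderm that forms the nervous system, rose in many cases. Of 55 measured, 25 rose and 2 fell, with a median of 0.66, and 13 rose without the block. The mean level was 3.67 to 3.91 in control caps and 4.69 to 5.08 in Pax3 caps with cycloheximide. The largest rises were those of prdm12.L, nrn1.S, irx3.L and nkx6-2.L, given above. Those that fell were the tubulin gene tubb2b.S (-1.06, unpaired adjusted p = 0.587) and the cell adhesion gene ncam1.S (-0.60, unpaired adjusted p = 0.0508). The call for tubb2b.S held in 1 of the 6 fits with a sample left out, that without Pax3 with cycloheximide replicate 2, and another ncam1.S probe set did not pass, at -0.11.

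Of the 17 placode genes 2 passed, both higher (11.8%, near the 10.2% of all genes). foxi1.L, a forkhead gene of early ectoderm, placodes and ionocytes, went from 9.99, 9.63 and 9.53 to 11.42, 11.43 and 12.07, a rise of 1.93 ± 0.21 (adjusted p = 0.000187). Its Pax3 difference of 0.31 did not pass and its drug difference of 1.61 did (adjusted p = 0.00121). pax6.L, a paired-box gene of eye and lens, rose by 1.86 (unpaired adjusted p = 0.483), and its samples overlapped, with control caps at 2.56, 5.47 and 3.09 and the drug group at 5.54, 6.79 and 4.38. Other pax6.L probe sets were at 0.89, which passed (unpaired adjusted p = 0.577), and -0.03, which did not.

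Endoderm genes, which caps do not normally use, had 14 rises among 40 genes and no call in the other direction, with a median of 0.47 and 7 rises without the block. Without control replicate 3 the median was 0.13. Beside the sox17 genes and foxa1.L the largest rise was that of gata5.L, a zinc finger gene of endoderm and heart. It was at 3.26, 3.26 and 3.50 in control caps and at 6.30, 6.83 and 6.79 in Pax3 caps with cycloheximide, a rise of 3.3 ± 0.35 (adjusted p = 0.000153). Its Pax3 difference was 2.71 (adjusted p = 0.00227) and its drug difference 0.60 (adjusted p = 0.31). The mean level of the list was 3.22 to 3.75 in control caps and 4.28 to 4.89 in the drug group. Whether cells took on an endodermal character was not tested.

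Mesoderm genes had 15 rises (16.9%) and 3 falls (3.37%) among 89, beside 10.2% and 6.87% of all genes. The median was 0.06 (-0.01 with arrays centred and -0.02 without control replicate 3), and 9 rose and 2 fell without the block. The rises were led by genes of the organizer, the dorsal signalling centre: gsc.L, gsc.S, nog.L and admp.S. nog.L encodes Noggin, a secreted BMP antagonist, and went from 2.00, 2.74 and 2.18 to 5.35, 7.1 and 5.52, a rise of 3.68 ± 0.32 (adjusted p = 4.76e-05). The falls were those of tnni2.S, a troponin gene (-3.0, with another probe set at -0.18 that did not pass), the T-box gene tbx2.L (-2.82) and foxj1.S, the forkhead regulator of motile cilia (-1.75, unpaired adjusted p = 0.0996, kept in 3 of the 6 fits with a sample left out). foxj1.S had a mean of 9.83 in control caps, where the mean of the list was 3.05 to 3.57 per sample. Its fall is therefore not read as a fall of mesoderm. In the germ plasm list 1 of 15 genes fell (6.67%, near the 6.87% of all genes), rtn3.L at -0.43 (unpaired adjusted p = 0.495). This call was lost whichever sample was left out. Other rtn3.L probe sets did not pass, at -0.29 and -0.36.

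Epidermal genes fell more often than they rose. Of 69 measured, 24 fell and 3 rose, with a median of -0.29, and without the block 7 fell and 2 rose. The mean level went from 7.35 to 7.76 per control sample to 6.81 to 7.41 per sample of the drug group, ranges that overlapped. Next to itln1.L and krt12.4.S the largest falls were those of mcidas.S and krt12.5.S. mcidas.S, which encodes multicilin, the switch for multiciliated cells, went from 6.75, 7.16 and 6.66 to 3.65, 4.49 and 3.31, a fall of 3.04 ± 0.41 (adjusted p = 0.000724). The keratin gene krt12.5.S went from 11.07, 11.21 and 11.35 to 7.99, 9.12 and 8.21, and fell by 2.77 (adjusted p = 0.000785). For both genes the drug difference passed (-1.57 and -1.62, unpaired adjusted p = 0.469 and 0.305) and the Pax3 difference did not (-1.47 and -1.15). The rises were those of foxi1.L and both foxa1 genes, foxa1 marking small secretory cells in this tissue. E-cadherin, cdh1.S, which holds epithelia together, fell by 1.2 (unpaired adjusted p = 0.22).

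The 13 cement and hatching gland genes had 3 rises and 3 falls, and only the falls kept their calls without the block. The falls were those of ag1.S, ag1.L and agr2.S. The rises were those of xa-1.L and of the head homeobox genes otx2.L (1.69, unpaired adjusted p = 0.375) and otx2.S (1.54, unpaired adjusted p = 0.226), both with a drug difference that passed (1.60 and 1.48, unpaired adjusted p = 0.502 and 0.331) and a Pax3 difference near 0 (0.09 and 0.05).

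Genes of pluripotency and the blastula, 36 in number, had 6 rises (16.7%) and 5 falls (13.9%), beside 10.2% and 6.87% of all genes. Without the block 4 rose, where 1.66% of all genes did. Rises included sox3.S (1.59 ± 0.23, adjusted p = 0.00113) and sox2.L (1.40), HMG-box genes of uncommitted and neural ectoderm, zic2.L (1.38) and the POU factor gene pou5f3.3.L (1.26, unpaired adjusted p = 0.378). Falls included tbx3.S (-2.04, unpaired adjusted p = 0.222), tbx3.L (-1.29, unpaired adjusted p = 0.294), lin28a.S (-1.19, unpaired adjusted p = 0.13) and ventx2.1.L (-1.36, unpaired adjusted p = 0.123), a BMP-dependent repressor gene. The call for tbx3.L was lost without Pax3 with cycloheximide replicate 2, and that for ventx2.1.L without replicate 1 of either group.

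Notch signalling passes between neighbouring cells, with fringe enzymes tuning the receptor and Hes repressors as its targets. Of 34 Notch pathway genes 12 rose and 5 fell, with a median of 0.21, and 5 rose and 2 fell without the block. The fringe gene lfng.S was among the steadiest changes of all, at 6.77, 7.22 and 7.05 in control caps and 9.16, 9.34 and 9.37 in Pax3 caps with cycloheximide, a rise of 2.27 ± 0.10 (adjusted p = 8.92e-07). lfng.L rose by 2.49. Their drug differences were 1.76 and 1.58, both passing, and their Pax3 differences 0.52 (adjusted p = 0.0166) and 0.91 (adjusted p = 0.202).

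The Hes genes moved in opposite directions. hes7.1.L and hes1.S rose as given above, and hes7.2.L went from 4.42, 3.55 and 4.74 to 6.39, 7.80 and 8.53, a rise of 3.34 ± 0.56 (adjusted p = 0.00242). Another hes7.2.L probe set rose by 3.61, and another stayed at 0.04 and did not pass. The hes5 genes fell. hes5.7.L went from 6.41, 5.66 and 6.56 to 2.88, 3.88 and 3.38, a fall of 2.83 ± 0.36 (adjusted p = 0.00046), with a Pax3 difference of -2.85 (adjusted p = 0.00197) and a drug difference of 0.02 (adjusted p = 0.98). hes5.6.L fell by 2.89, hes5.5.S by 3.23 (unpaired adjusted p = 0.0501) and hes5.3.L by 2.57 (unpaired adjusted p = 0.0931). The call for hes5.3.L was lost without replicate 1 of either group. The hes5 genes lie in a cluster of near relatives, so the share of signal that each probe set takes from the others is uncertain.

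BMP and Nodal are ligands of the TGF-beta family that pattern the back and belly of the embryo and its germ layers. Of 67 genes of these pathways 17 rose and 5 fell, with a median of 0.26, and 6 rose without the block. Without control replicate 1 the number that rose was 9, and none of the 5 falls passed in that fit. nog.L rose most, followed by admp.S, a BMP-like ligand of the organizer, at 3.47 ± 0.63 (adjusted p = 0.00389). Another admp.S probe set did not pass, at 1.25. lefty.L, a feedback inhibitor of Nodal, went from 3.32, 3.69 and 3.49 to 6.57, 6.69 and 7.29, a rise of 3.36 ± 0.40 (adjusted p = 0.000354), with a drug difference of 2.42 (adjusted p = 0.00464) and a Pax3 difference of 0.94 that did not pass. nodal.L rose by 2.24 (adjusted p = 0.0357, unpaired adjusted p = 0.0961), which held without Pax3 with cycloheximide replicate 3 and was lost without any other sample. Falls included bmper.L (-0.98, unpaired adjusted p = 0.088) and twsg1.S (-0.62, unpaired adjusted p = 0.188), both extracellular BMP modulators. The call for twsg1.S was lost whichever sample was left out, and bmper.L kept it in 2 of the 6 cases.

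In the FGF pathway, which promotes mesoderm and posterior neural fates, 8 of 38 genes rose (21.1%) and 1 fell (2.63%). Of all genes 10.2% rose and 6.87% fell. Without the block 1 rose, where 1.66% of all genes did. Without control replicate 1 the number that rose was 4. The ligand gene fgf8.L went from 5.3, 5.28 and 5.87 to 8.14, 8.23 and 8.44, a rise of 2.79 ± 0.33 (adjusted p = 0.000301), and had a Pax3 difference of 1.79 (adjusted p = 0.0143). A further 2 of its probe sets rose, by 3.04 and 2.32, and 1 stayed at 0.02. flrt3.L, a membrane protein gene linked to FGF signalling, rose by 2.03 (unpaired adjusted p = 0.289), flrt3.S by 1.64 (unpaired adjusted p = 0.0925, kept in 2 of the 6 fits with a sample left out) and the receptor gene fgfr2.L by 1.26 (unpaired adjusted p = 0.365), another probe set of which did not pass, at 0.90. dusp1.L, which encodes a MAP kinase phosphatase, fell by 0.81 (unpaired adjusted p = 0.247, kept in 2 of the 6).

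In the Wnt pathway 9 of 67 genes rose (13.4%) and 4 fell (5.97%), with the block near the 10.2% and 6.87% of all genes. The median was 0.04 (-0.03 with arrays centred). Without the block 4 of the 67 rose and 1 fell, beside 1.66% and 1.12% of all genes. The receptor gene fzd4.S went from 4.70, 4.99 and 5.21 to 7.67, 7.12 and 7.25, a rise of 2.38 ± 0.21 (adjusted p = 6.3e-05), all of it in the drug difference (2.44, beside -0.06 with Pax3). axin2.L, a feedback inhibitor and target of Wnt, rose by 1.5, also with the drug (1.65, beside -0.14). The antagonist gene dkk1.S rose by 1.52 (unpaired adjusted p = 0.285) with a Pax3 difference of 1.47 (adjusted p = 0.0267, unpaired adjusted p = 0.928). Its other probe set rose by 1.87 (unpaired adjusted p = 0.0726), and there the Pax3 difference of 0.79 did not pass (adjusted p = 0.466). The ligand gene wnt8a.L rose by 2.41 (unpaired adjusted p = 0.12), a call kept without control replicate 2 or 3 and lost without any other sample. Among receptor and transducer genes dvl3.L fell by 1.11, fzd3.L by 0.86 (unpaired adjusted p = 0.415), fzd8.S by 0.58 (unpaired adjusted p = 0.142) and fzd6.S by 0.52 (unpaired adjusted p = 0.697). The call for fzd8.S was kept in 3 of the 6 fits with a sample left out and that for fzd6.S in 2, and another fzd8.S probe set rose by 0.41 (unpaired adjusted p = 0.637), while those at -0.02 and -0.27 did not pass.

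Retinoic acid posteriorizes the neural plate, and its level is set by enzymes that make and degrade it. Of 24 genes 6 rose (25.0%) and 2 fell (8.33%), beside 10.2% and 6.87% of all genes. Without the block 2 rose, where 1.66% of all genes did. aldh1a2.L, which makes it, went from 5.28, 5.59 and 4.55 to 6.87, 7.1 and 6.97, a rise of 1.84 ± 0.24 (adjusted p = 0.000546), and had a Pax3 difference of 2.35 and a drug difference of -0.51 that did not pass. Of its 6 other probe sets 3 rose, by 1.11 to 2.38, and 3 did not pass, at -0.86, -0.60 and 0.24. Degrading enzymes rose as well, cyp26a1.S by 1.87 ± 0.30 (adjusted p = 0.00184) and cyp26c1.S by 2.71 (unpaired adjusted p = 0.073), as did dhrs3.L, which turns retinal back into retinol, by 1.86 (unpaired adjusted p = 0.0534). In these 3 the drug difference passed, at 1.51, 2.08 and 1.59, with an unpaired adjusted p of 0.119, 0.273 and 0.165. Other probe sets of the cyp26 genes did not pass, at -0.09 for cyp26a1.S and 0.65 and 0.04 for cyp26c1.S. rdh10.L, which oxidises retinol, fell by 1.02 (unpaired adjusted p = 0.155) and the receptor gene rxrb.S by 0.38 (unpaired adjusted p = 0.595, kept in 1 of the 6 fits with a sample left out).

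Among 91 adhesion and matrix genes 22 rose and 10 fell, with a median of 0.05 (-0.02 with arrays centred), and 9 rose without the block. Rises included those of pcdh8.L, the paraxial protocadherin gene (2.45 ± 0.26, adjusted p = 0.000168, with 0.51 in another probe set, unpaired adjusted p = 0.21, and 0.35 in one that did not pass), the claudin gene cldn5.L (2.07, unpaired adjusted p = 0.0683) and the hyaluronan synthase gene has2.S (1.89, unpaired adjusted p = 0.0725). Falls besides that of cdh1.S included those of the ephrin genes efnb3.L (-1.27, unpaired adjusted p = 0.0563) and efna1.L (-1.07, unpaired adjusted p = 0.197) and the collagen gene col1a2.L (-1.11, unpaired adjusted p = 0.569). Other col1a2.L probe sets did not pass, at -0.93 and 0.12. The calls for has2.S, efna1.L and col1a2.L were each lost in 4 or 5 of the 6 fits with a sample left out.

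Genes known to answer cycloheximide itself rose in many cases. Of 86 immediate early and superinduced genes, whose messengers are made and destroyed quickly, 40 rose (46.5%) and 5 fell, with a median of 0.60, and 10 rose and 1 fell without the block. In the drug difference alone 36 rose and 2 fell, beside 772 (6.83%) and 632 (5.59%) of all genes, and in Pax3 caps against control 4 rose and 7 fell, beside 114 (1.01%) and 156 (1.38%). gadd45g.S, a growth arrest gene, went from 7.66, 8.99 and 7.23 to 10.94, 11.35 and 11.08, a rise of 3.16 ± 0.33 (adjusted p = 0.000158), and gadd45g.L rose by 2.62. Both had drug differences over 3 (3.37 and 3.39) and Pax3 differences that did not pass (-0.21 and -0.77). The list also holds arrdc2.S, whose rise of 4.59 in another probe set lay in the Pax3 difference (4.40), and snai1.S. zfp36.L, whose product destroys AU-rich messengers, went the other way, from 6.17, 6.76 and 6.81 to 2.50, 3.93 and 4.07, a fall of 3.08 ± 0.21 (adjusted p = 9.55e-06). Smaller falls were those of btg1.L (-1.01, unpaired adjusted p = 0.0661) and ier5l.S (-0.97, unpaired adjusted p = 0.11, kept in 2 of the 6 fits with a sample left out).

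Dexamethasone was given to these caps and not to controls. Of 47 known glucocorticoid receptor targets 12 rose (25.5%) and 3 fell (6.38%), beside 10.2% and 6.87% of all genes. Without the block 7 rose and 1 fell, where 1.66% and 1.12% of all genes did. In Pax3 caps against control 1 rose and 3 fell, where 1.01% and 1.38% of all genes did. In the drug difference, where both groups had dexamethasone, 11 rose and 1 fell, where 6.83% and 5.59% of all genes did. The list does not hold rasd1, described above as named for its induction by dexamethasone, so these counts leave it out. rasd1 rose by 4.65 with a Pax3 difference of 3.0, and by 1.74 in another probe set whose Pax3 difference was -1.05. On the list the largest rises were those of gadd45g.S and gadd45g.L, which the early-response list also holds, sgk1.L, a kinase gene (2.19, unpaired adjusted p = 0.421), and tsc22d3.L, which encodes the leucine zipper protein GILZ (2.16, unpaired adjusted p = 0.381). Control samples of sgk1.L lay at 6.08, 9.63 and 5.31, with replicate 2 above 2 of the samples of the drug group, and its call was lost without replicate 1 of either group or control replicate 3. tsc22d3.L was at 4.06, 6.83 and 4.96 in control caps and 7.14, 8.74 and 6.44 in the drug group, which overlapped. Its drug difference was 1.28 (adjusted p = 0.0448) and its Pax3 difference 0.88 (adjusted p = 0.436). The falls were those of zfp36.L, dusp1.L and glul.L (-0.33, unpaired adjusted p = 0.211, kept in 1 of the 6 fits with a sample left out).

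The endoplasmic reticulum folds secreted proteins, and its chaperone genes are turned up when unfolded protein piles up. Of 61 genes of amino acid supply and the unfolded protein response 21 fell (34.4%) and 5 rose, with a median of -0.29. Of all genes 6.87% fell. Without the block 13 fell, beside 1.12% of all genes, and 4 rose. In the drug difference the counts were 21 and 5 as well, where 5.59% of all genes fell and 6.83% rose. In Pax3 caps against control 2 fell, where 1.38% of all genes did. The amino acid transporter gene slc38a2.L went from 9.21, 9.20 and 9.11 to 6.90, 7.39 and 6.78, a fall of 2.15 ± 0.33 (adjusted p = 0.00155), and it had a Pax3 difference of -1.55 (adjusted p = 0.0341). The folding genes pdia4.L (-1.63), dnajb9.L (-1.56) and hspa5.L, which encodes the chaperone BiP (-1.45), fell with drug differences of -1.68, -1.64 and -1.22, all passing, and Pax3 differences of 0.05, 0.08 and -0.23. Among the 5 that rose, atf3.L, a stress-induced factor gene, went from 4.51, 5.55 and 4.45 to 7.64, 7.46 and 6.72, a rise of 2.44 ± 0.29 (adjusted p = 0.000311). ddit4.S, an inhibitor of the growth kinase mTOR, rose by 1.71, ddit3.L, which encodes CHOP, by 1.36, and the serine synthesis gene psat1.L by 1.34 (unpaired adjusted p = 0.664). With the block the share that rose was 8.2%, below the 10.2% of all genes. Without it the 4 rises among 61 genes stood beside 1.66% of all genes.

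Of 111 cell cycle genes 25 rose (22.5%) and 4 fell (3.6%), beside 10.2% and 6.87% of all genes. The median was 0.21. Without the block 2 rose and 2 fell, near the 1.66% and 1.12% of all genes. The fit without control replicate 1 had 13 rises. Rises included rbl1.L, a relative of the retinoblastoma gene (1.80 ± 0.20, adjusted p = 0.0002, and 0.48 in another probe set with an unpaired adjusted p = 0.513), ccne2.L, a cyclin of the start of replication (1.44), the mitotic inhibitor wee1.S (1.3, unpaired adjusted p = 0.154) and the replication gene cdc45.S (1.23, unpaired adjusted p = 0.247). Of the 4 genes that fell, the cyclin gene ccnb3.L fell by 1.01 ± 0.13 (adjusted p = 0.000604), the mitotic kinase gene cdk1.S by 0.80 and cdk1.L by 0.61 (unpaired adjusted p = 0.105, kept in 2 of the 6 fits with a sample left out). In the p53 response list 10 of 44 genes rose (22.7%) and 1 fell (2.27%), beside 10.2% and 6.87% of all genes. Without the block 2 rose, where 1.66% of all genes did, and without control replicate 3 the number that rose was 5. The p21 inhibitor gene cdkn1a.L rose by 1.76 ± 0.41 (adjusted p = 0.015). It kept its call in 3 of the 6 fits with a sample left out. plk2.S (1.65, unpaired adjusted p = 0.316), sesn2.S (1.23) and sesn1.L (1.12, unpaired adjusted p = 0.167, kept in 2 of the 6, with another probe set at 0.89 that did not pass) rose and the apoptosis inhibitor gene birc2.S fell by 1.37 (unpaired adjusted p = 0.0534).

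The translation machinery is the target of the drug. Of 89 ribosomal protein genes 6 fell (6.74%), near the 6.87% of all genes, with a median of -0.17. All of these calls were lost without the block. At most 1 of them fell with any 1 sample left out, and 23 fell with arrays centred. In the drug difference 23 of the 89 fell, where 5.59% of all genes did. Of 89 genes of translation factors and ribosome assembly 2 rose and 3 fell (20 with arrays centred), the rises being those of the helicase gene eif4a2.L (1.39 ± 0.13, adjusted p = 9.38e-05) and the poly(A)-binding protein gene pabpc4.L (1.09). The falls were of at most 0.35, and each was lost in at least 5 of the 6 fits with a sample left out. Of 57 genes of messenger turnover 5 rose (8.77%) and 3 fell (5.26%), near the 10.2% and 6.87% of all genes. Next to zfp36.L and btg1.L these included the zfp36.L relatives zfp36l2.L (1.12, unpaired adjusted p = 0.363) and zfp36l2.S (0.87, unpaired adjusted p = 0.0766), which rose. tob2.L rose as well (0.94, unpaired adjusted p = 0.276). With a sample left out zfp36l2.L kept its call in 2 of the 6 fits and zfp36l2.S in 4.

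Of 26 housekeeping genes 1 rose, pgk1 by 0.59 (unpaired adjusted p = 0.706), and 5 fell (19.2%), where 6.87% of all genes fell. Among the falls was that of gapdh.L by 0.69 (unpaired adjusted p = 0.304). All of these calls were lost without the block. In the drug difference 6 of the 26 fell, where 5.59% of all genes did. The mean level of the list was 8.42 to 8.63 per control sample and 8.43 to 8.63 per sample of the drug group. Of 33 heat shock genes 1 rose and 2 fell by up to 0.54, and of 33 histone and chromatin genes 4 rose by up to 0.69. These calls too were lost without the block. The plot of the lists sets all of them beside the share for all genes.

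**Figure D5:**
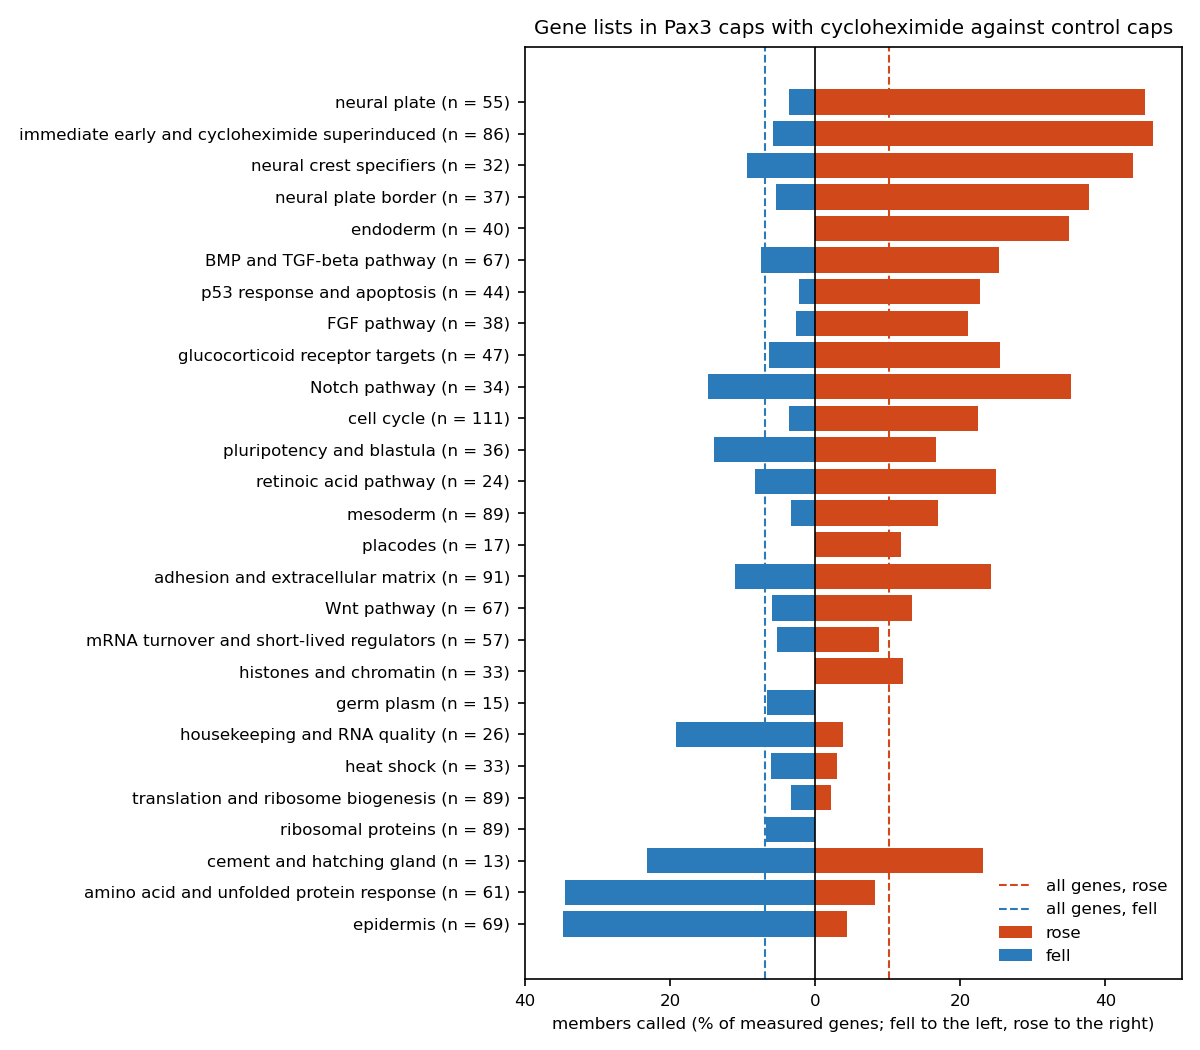
Share of the measured genes of each list that passed and rose (right) or passed and fell (left), in percent, Pax3 caps with cycloheximide against control caps, ordered by the median change of the list, with n the genes measured. Dashed lines mark the shares for all 11303 genes with 1 symbol, 10.2% for rises and 6.87% for falls, and the early-response list has 46.5% rises.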

How the data were processed

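Gene expression of Xenopus laevis animal caps was measured on Affymetrix arrays, 16 arrays for 15 biological samples. The authors deposited 1 value per probe set and array, taken as log2 from its range. The submitters' processing notes name R 2.14.2, and how the authors corrected, normalized and summarised the probes was not known here. Total RNA (10 µg per array) was labelled with biotin, per the labels' protocols. The number of arrays limits the precision.

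The 96 Affymetrix control probe sets were left out, and no scaling or filter was added. The platform's annotation named 1 gene symbol for 15495 probe sets, several for 279 and none for 16765. Symbols were updated from the RefSeq gene table (assembly Xenopus_laevis_v10.1), which held 15384 of them and changed 2. Promoter sequences were not analysed here.

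Tables were read with the data.table package (1.17.8) in R 4.3.3. A single limma 3.58.1 model (lmFit, then eBayes without trend or robust options) held all 5 groups, with the replicate number as a fixed block (residual degrees of freedom 8, prior 3.4; without the block 10 and 2.17). Arrays 2.1 and 2.2 of Pax3 and Zic1 caps carry one biological replicate number, differed with an SD of 0.183, and were averaged. A two-sided test passed at an adjusted p (Benjamini-Hochberg) under 0.05. The replicate numbers were checked as pairs. With group means removed, samples of one number correlated at 0.43 to 0.86 over probe sets and samples of different numbers at most at -0.1, and control caps correlated with Pax3 caps with cycloheximide of the same number at 0.82, 0.79 and 0.82. Removing group means makes correlations between different numbers negative on average by construction, so their sign says nothing about the pairing. No source used here says what the numbers stand for. The model was also run on simulated data with independent noise and the same block, which cannot show whether the block is right.

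Named were every probe set of pax3 and zic1, the 15 genes that rose most and the 15 that fell most, from called probe sets having 1 symbol, 3 of 3 pairs in one direction and no overlap, up to 4 called genes in each direction of each of 27 gene lists, and 11 crest genes whatever their values. In a list each gene stood for 1 probe set, that with the highest mean. Where a named gene passed, its probe sets that did not pass are given after it. The named genes had 79 further probe sets in all, of which 45 passed, and 23 of these also without the block. A gene that the rule names in the adhesion list is not reported here. The comparison, the lists and the rules were chosen with earlier results of these data known. Alternatives were no block, only the groups compared, a trend or robust prior, the brighter part of the probe sets, quantile normalization, centring on medians, a minimum change, leaving out samples, and 1 repeat array alone. A fit without the block of only the groups compared was added after the data were seen.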

Additional observations from a re-analysis of the deposited data

How the results depend on the processing

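The replicate block decided most counts. For Pax3 with cycloheximide against control caps 822 probe sets passed without it (418 higher, 404 lower) in place of 4836 (2562 and 2274), and 467 (254 and 213) in a fit, added after the data were seen, of only these groups without the block. For Pax3 against control 93 and 29 passed in place of 695, and for the drug difference 283 and 0 in place of 3412; in that last limma fit 3443 probe sets had an unadjusted p under 0.05. With only the groups compared and the block, 1383 passed for Pax3 and 5554 for the drug. With a change of at least 1 there were 1352 (727 and 625), 460 and 811. Without Pax3 and Zic1 replicate 3, which is in none of the groups compared, 6915 passed in the main comparison (3639 and 3276), 1028 for Pax3 and 5660 for the drug. Leaving out 1 sample of the groups compared gave 2716 to 3927 in the main comparison (1423 to 2179 higher, 1233 to 1748 lower), 280 to 606 for Pax3 and 1342 to 2085 for the drug. The trend and robust priors, the brighter part of the probe sets, quantile normalization and the single repeat array left these counts within 1.5 times.

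Of 165 named probe sets that passed, 77 kept the call without the block, 128 with a change of at least 1, 159 under quantile normalization, 164 with arrays centred and 119 with any 1 sample left out, and none reversed its sign under these settings. Reversals were limited to values that had not passed: a pax3.L probe set at 0.15 ranged from -0.10 to 0.31 with a sample left out (-0.10 without control replicate 2, -0.03 without Pax3 with cycloheximide replicate 2), and sox9.S at 0.45 ranged from -0.04 (without Pax3 with cycloheximide replicate 1) to 0.78. The cause of these shifts was not tested.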

Other observations

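Both copies of a gene were measured for 2009 genes with an .L and an .S form. In Pax3 caps with cycloheximide against control caps both copies rose in 95 of these and both fell in 60, while they passed in opposite directions in 6. Only the .L copy passed in 233 and only the .S copy in 195, and neither in 1420. Of all 11303 genes with 1 symbol 10.2% rose and 6.87% fell. How far a probe set for one copy also detects the other was not tested, so nothing is read from the likeness of the copies. A copy that did not pass is not shown to differ from one that did, since the difference between copies was not tested.

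Of 2702 genes with several probe sets 745 had at least 1 that passed. In 209 all of them passed in the same direction, and in 11 some passed higher and others lower. Probe sets without exactly 1 gene symbol, 16765 with none and 279 with several, were tested and counted and are not named.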
